A study of Sorghum bicolor with 16 samples.

Results

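CIPK25, gene SORBI_3002G417300, is described in the deposited tables as CBL-interacting protein kinase 25 of sorghum. It was taken by its gene identifier, as 1 gene of the 29033 in the expression table, and it carried 3 of the 38503 m6A peaks in the 4 deposited peak lists. The mark m6A, N6-methyladenosine, is a methyl group on adenosines of messenger RNA. In m6A-seq, RNA fragments pulled down with an antibody against the mark (IP) are compared with fragments that were not enriched (input). The samples were roots of sweet sorghum, taken at the 3-leaf phase from 2 strains, in 4 conditions: Roma (labelled salt-sensitive) under salt stress, Roma control, M-81E (labelled salt-tolerant) under salt stress, and M-81E control. Each condition had 2 IP and 2 input samples, described as biological replicates, 16 samples in all. The salt dose, the length of the treatment and the number of plants behind a sample were not given in the sources used here.

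CIPKs are plant serine/threonine kinases that are switched on by calcineurin B-like (CBL) calcium sensors. Stress signals such as salt raise calcium in the root cell, a CBL binds the calcium, and the CBL then binds the regulatory tail of a CIPK and brings it to a membrane. In Arabidopsis the pair of CBL4 (SOS3) and CIPK24 (SOS2) activates the sodium/proton exchanger SOS1, and other CBL and CIPK pairs act on potassium channels and nitrate transporters. CIPK25 is annotated in the deposited table with serine/threonine kinase activity and a location at the plasma membrane.

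Expression values were available for 8 libraries, 2 per condition, in FPKM, which divides the fragments of a gene by its length and by the size of the library. The sample descriptions place these columns with the IP samples, while the names of the peak lists use the same column names for the input side. Levels of RNA and enrichment by the antibody therefore cannot be told apart in the FPKM values, and bulk roots do not separate fewer cells of a type from less RNA per cell. Depth relative to M-81E control replicate 1 (set to 1), as low FPKM values show it, ran from 0.801 to 1.32. M-81E control replicate 2 stood apart, at 94.6 on the second principal component (19.7% of the variance) against -57.6 to 9.06 in the other 7 libraries. Across genes, replicates of a condition correlated with a Spearman's rho of 0.904 in Roma salt, 0.912 in Roma control, 0.864 in M-81E salt and 0.807 in M-81E control. The 4 genes described as photosystem proteins summed to at most 0.349 FPKM in any library. The words used for root markers found 4 genes, of which 3 are peroxidases, and none that defines a root cell type, so the label root had no positive check.

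CIPK25 had a high FPKM in every condition, and its highest values were those of Roma roots under salt. It had an FPKM of 75.9 and 82.5 in the Roma salt libraries, against 37.8 and 40.8 in the Roma control libraries. The salt libraries of Roma did not overlap with its controls, and their mean of 79.2 ± 4.68 was 2.01 times the control mean of 39.3 ± 2.17 (SD, n = 2). In M-81E it had an FPKM of 55.7 and 45.3 in the salt libraries, against 30.3 and 44.1 in the control libraries. On this scale these groups did not overlap either, but the lower salt library and the higher control library were close, and the mean of 50.5 ± 7.39 in salt was 1.36 times that of 37.2 ± 9.74 in control (SD, n = 2). Among genes at FPKM 1 or more in the same library, CIPK25 lay above 93.9 and 94.5% in Roma salt, 86.6 and 87.7% in Roma control, 92 and 89.1% in M-81E salt, and 83 and 88.3% in M-81E control.

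**Figure D1:**
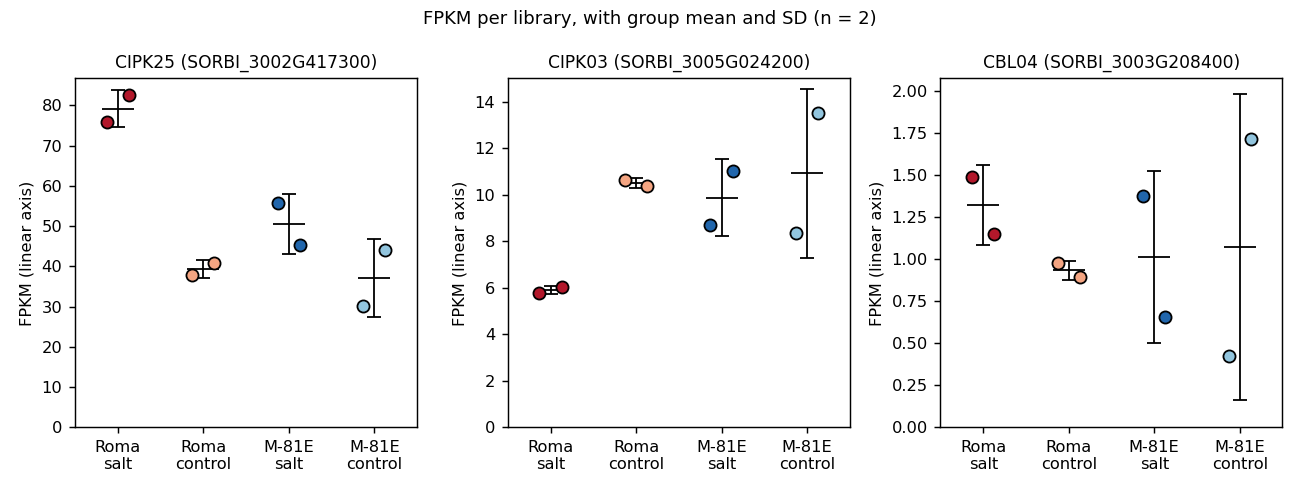
FPKM of CIPK25, CIPK03 and CBL04 (linear axes from 0) in each of the 8 libraries; points are libraries, horizontal bars are group means and whiskers are SD (n = 2). CIPK25 is highest in Roma salt, at 75.9 and 82.5, where CIPK03 is lowest, at 5.79 and 6.04.

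The order of the mean levels of CIPK25 was Roma salt, M-81E salt, Roma control and M-81E control. Roma salt stood clear of the next group, since its lower library (75.9) was above the higher M-81E salt library (55.7). The 3 other groups followed each other closely: the lowest M-81E salt library (45.3) was just above the highest M-81E control library (44.1), and both Roma control libraries (37.8 and 40.8) lay inside the M-81E control range.

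Whether salt changed CIPK25 was tested with limma on log2(FPKM + 1) over the 16280 genes whose mean FPKM reached 1, and no contrast passed an adjusted p of 0.05. In Roma the difference was 0.99 ± 0.24 (log2, SE; 95% interval 0.41 to 1.58), with adjusted p = 0.188 by limma. Here 0.473% of tested genes passed, and CIPK25 belonged to the 11.8% with an unadjusted p under 0.05 (its limma p was 0.00586, and 3.10% of tested genes had a smaller one). A larger difference than that of CIPK25 was fitted for 5.23% of tested genes. In M-81E the difference was 0.45 ± 0.24 (95% interval -0.14 to 1.03, limma adjusted p = 0.462, 0.491% of tested genes passing), and 20.8% of tested genes had a larger one. Over both strains the salt difference was 0.72 ± 0.17 (95% interval 0.31 to 1.13, limma adjusted p = 0.129), in a contrast where 1.22% of tested genes passed and 16.3% had an unadjusted p under 0.05.

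As deposited, all 4 salt libraries of CIPK25 were above both controls of their own strain. With each library rescaled to a summed FPKM of 1000000 this held in Roma only: M-81E then had 162 and 126 in salt, against 81.4 and 135 in control, and these groups overlapped. On the deposited scale the exact permutation test of salt within strain, two-sided over 36 assignments, gave p = 0.0556, which is the smallest that it can give, and with the equal sums it gave p = 0.111. Of 2 libraries against 2 alone, an exact test cannot go below p = 0.333, which any complete separation of the groups gives. The share of all tested genes with such a separation is not given here. Statements that groups did or did not overlap, for CIPK25 or any other gene, are therefore descriptions only. The salt difference in Roma ranged from 0.93 to 1.05 with any 1 Roma library left out, so it kept its size. Leaving out an M-81E library cannot move it, because each group has its own mean, and changes only its SE. It did not pass with any 1 library left out. The salt difference in M-81E moved most with its controls: leaving out M-81E control replicate 1 gave 0.19, and leaving out replicate 2, the library that stood apart, gave 0.71. Over both strains the salt difference passed without M-81E control replicate 1 (0.59) and without replicate 2 (0.85), and did not pass without any 1 of the other 6 libraries. Those fits left 1 library in M-81E control. More genes of the whole table passed in them than with all 8 libraries, so the passes were not particular to CIPK25.

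**Figure D2:**
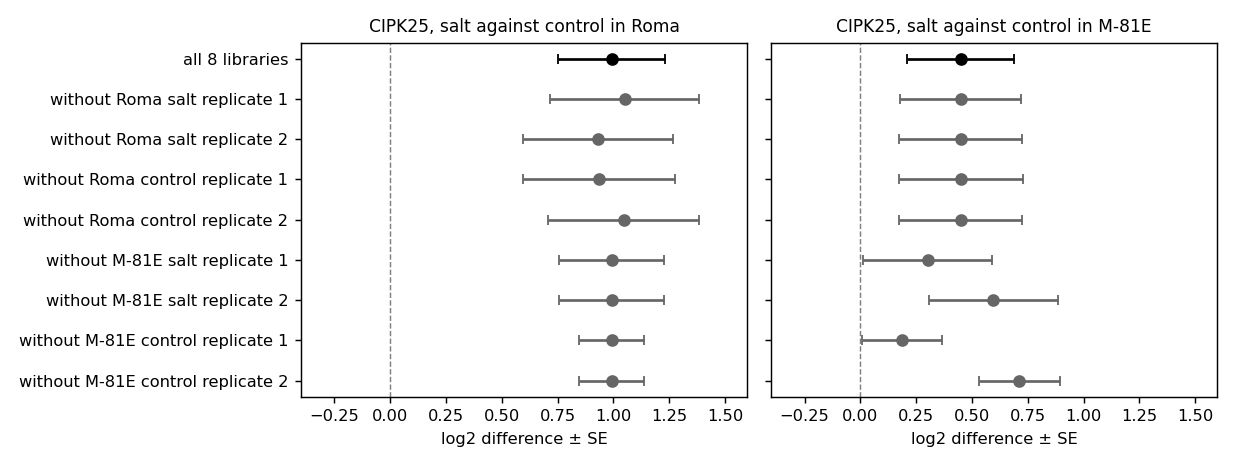
Fitted salt difference of CIPK25 (log2, x axis) with its SE, in Roma and in M-81E, with all 8 libraries and with each library left out in turn. The Roma values lie between 0.93 and 1.05, and the M-81E values between 0.19 and 0.71. Leaving out a library of the other strain can change only the SE.

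Between the strains CIPK25 differed little without salt. In control the Roma minus M-81E difference was 0.10 ± 0.24 (log2, SE; 95% interval -0.48 to 0.69, limma adjusted p = 0.806, 12.1% of tested genes passing). The median difference of all tested genes in this contrast was 0.30. The fitted difference of CIPK25 was below that median, but its interval includes it. The sign of the CIPK25 difference turned with each library rescaled to the same sum (-0.0094) and without M-81E control replicate 1 (-0.16). Under salt the difference was 0.64 ± 0.24 (95% interval 0.06 to 1.23, limma adjusted p = 0.142), where 8.42% of tested genes passed and 29.3% had an unadjusted p under 0.05. It was smaller with other scalings, at 0.49 ± 0.25 with quantile scaling and 0.57 ± 0.29 with equal sums of FPKM (limma adjusted p = 0.298 and 0.290). On the deposited scale the median difference of all tested genes under salt was 0.29. The fitted difference of CIPK25 was above that median, but its interval includes it, and 27.4% of tested genes had a larger difference. This contrast passed without M-81E control replicate 1 and without replicate 2, libraries that enter it only through the pooled spread. More genes of the whole table passed in those fits as well. Over both treatments the strain difference was 0.37 ± 0.17 (95% interval -0.04 to 0.79, limma adjusted p = 0.148, 27.7% of tested genes passing), beside a median of 0.30. It passed only when M-81E control replicate 2 was left out (0.50), a fit in which more genes of the whole table passed as well. The exact permutation test of strain over 70 assignments, two-sided, gave p = 0.314.

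The salt differences of the strains were compared directly as well. The Roma change minus the M-81E change was 0.54 ± 0.34 (log2, SE; 95% interval -0.28 to 1.37), with limma adjusted p = 0.713, and 0.178% of tested genes passed. Leaving out M-81E control replicate 1 gave 0.81, leaving out replicate 2 gave 0.28, and over all 8 libraries left out in turn the limma adjusted p ran from 0.104 to 0.976. A larger response of CIPK25 in Roma was thus not shown, and the interval reaches from a smaller to a clearly larger one.

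**Figure D3:**
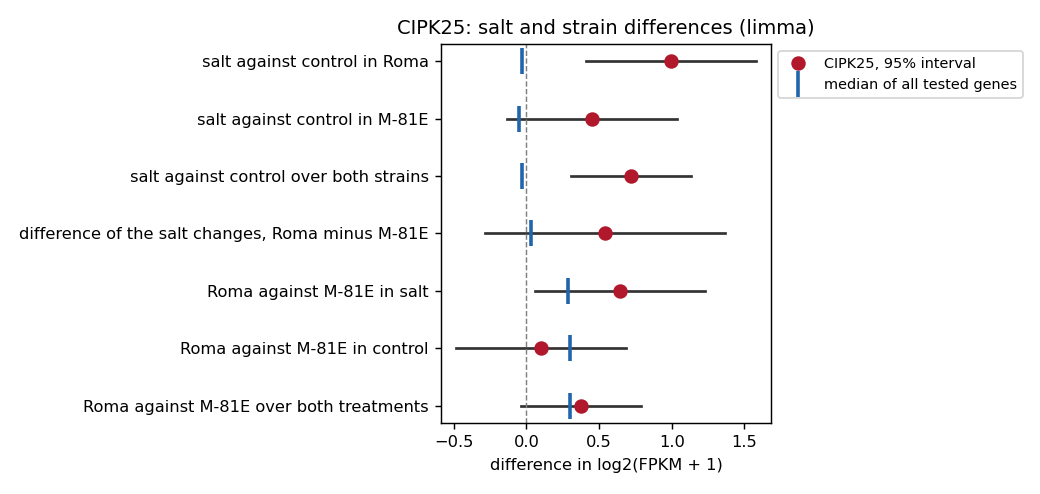
Fitted differences of CIPK25 in log2(FPKM + 1) with 95% intervals (limma, 8 libraries), beside the median of all 16280 tested genes (blue ticks). On the deposited scale, shown here, the interval lies above 0 for salt in Roma (0.41 to 1.58) and for salt over both strains (0.31 to 1.13). It also does for Roma against M-81E in salt (0.06 to 1.23). None of the 7 passed the adjusted threshold.

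Peaks of CIPK25 were present in both salt lists and in neither control list. The gene lies on chromosome 2, minus strand, from 76453561 to 76458758 in the authors' coordinates (5198 bp; the genome build was not given in the sources used here). In Roma salt the main peak ran over 391 bp (chr2:76455670-76456060), was annotated to the 3′ UTR, and had a fold enrichment of 4.88 and a log10 p of -155. In M-81E salt the peak ran over 301 bp (chr2:76455700-76456000), was also annotated to the 3′ UTR, and had a fold enrichment of 6.52 and a log10 p of -185. The M-81E peak lay wholly inside the Roma one and covered 77.0% of it, so a peak was listed at the same place in both strains. Roma salt had 1 further peak, of 151 bp (chr2:76456120-76456270), annotated to exon 1 of 2. It lay 59 bases from the main peak towards the 5′ end, with a fold enrichment of 1.52 and a log10 p of -35.7.

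**Figure D4:**
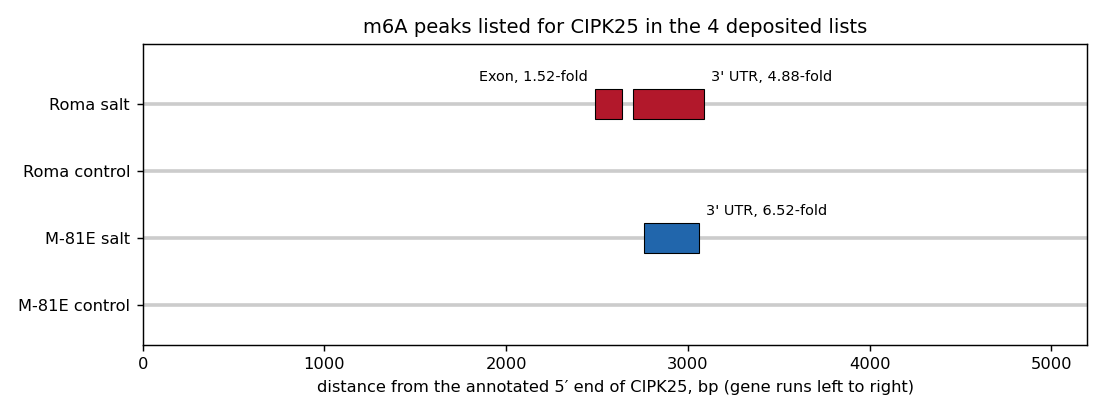
Peaks listed for CIPK25 along the gene (x axis, bp from its annotated 5′ end; grey lines are the 5198 bp of the gene), with 1 row for each deposited list. The 3′ UTR peaks start 2698 bp and 2758 bp from the 5′ end in Roma salt and M-81E salt, and both control rows are empty.

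The main peaks lay in the middle of the annotated gene, 2698 bp and 2758 bp from its 5′ end in Roma salt and M-81E salt, and 2109 bp and 2139 bp from its 3′ end. All fold enrichments and p-values are the authors' values, from 1 list per condition, so no error or test of a change in methylation could be given. By fold the main peaks were weak within their lists: 12.2% of Roma salt peaks and 26.9% of M-81E salt peaks had a lower fold. By p they were near the middle, with 55.1% and 56.1% of peaks weaker in the Roma salt and M-81E salt lists. The exon peak of Roma salt was among the weakest, with only 0.389% of peaks at a lower fold.

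The absence from the control lists was set beside what those lists hold. The Roma control list held 5949 peaks against 12080 in Roma salt, and the M-81E control list 10219 against 10255 in M-81E salt. The Roma control list went down to a fold of 1.34, and 11.6% of its peaks had a lower fold than the main Roma salt peak of CIPK25. The M-81E control list went down to a fold of 1.17, and 26.8% of its peaks had a lower fold than the M-81E salt peak of CIPK25. Of genes at a mean FPKM of at least 1 in the condition, 56.8% had a peak in Roma salt, 31.1% in Roma control, 51.6% in M-81E salt and 50.6% in M-81E control. A Roma salt peak without a Roma control peak was common, at 46.8% of the tested genes with a Roma salt peak. An M-81E salt peak without an M-81E control peak was seen for 14.5% of the tested genes with an M-81E salt peak. The pattern of CIPK25, a peak in both salt lists and in neither control list, was shared by 666 of the 16280 tested genes, or 4.09%.

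The FPKM of CIPK25 was higher in salt than in control in both strains, beside its peaks, and the part of the level in the listing of a peak was not tested. The 665 other genes of this pattern had a median salt difference of 0.02 in Roma (log2; quartiles -0.25 and 0.33), beside -0.03 over all tested genes. In M-81E their median was -0.04, beside -0.05 over all tested genes. In Roma 4.96% of them had a larger difference than CIPK25, and 5.23% of all tested genes did. In M-81E these shares were 17.0% and 20.8%.

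**Figure D5:**
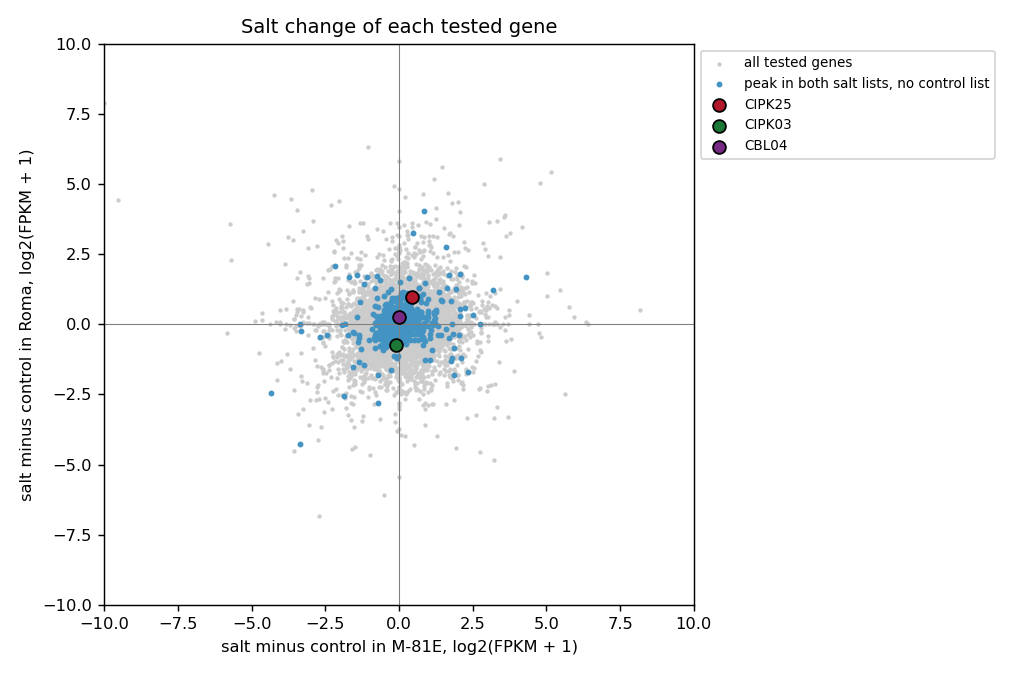
Salt minus control in log2(FPKM + 1) for each of the 16280 tested genes, in M-81E (x axis) and Roma (y axis); blue points are the genes with a peak in both salt lists and in neither control list. CIPK25 lies at 0.45 and 0.99 in M-81E and Roma, while CIPK03 lies at -0.74 in Roma.

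Only 2 other genes carried the words CIPK or CBL in their names or descriptions, since most products in the table are described as hypothetical proteins, so further members of the family were not found by name. CIPK03 (SORBI_3005G024200), a kinase of the same family, had an FPKM of 5.79 and 6.04 in Roma salt, against 10.7 and 10.4 in Roma control. Its libraries did not overlap, with a salt difference in Roma of -0.74 ± 0.26 (log2, SE; limma adjusted p = 0.346). In M-81E it had 8.70 and 11.0 in salt, against 8.36 and 13.5 in control, with overlapping groups and a difference of -0.11 ± 0.26 (limma adjusted p = 0.879), which turned to 0.05 without M-81E salt replicate 1 and to 0.21 without M-81E control replicate 2. On the per-length FPKM scale CIPK25 exceeded CIPK03 in every library. The ratio of CIPK25 to CIPK03 within a library was 13.1 and 13.7 in Roma salt, against 3.55 and 3.94 in Roma control, and 6.41 and 4.10 in M-81E salt, against 3.62 and 3.26 in M-81E control. This ratio is free of any factor common to a whole library, though not of quantile scaling; it was chosen after the values had been seen and was not tested.

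CBL04 (SORBI_3003G208400), described as calcineurin B-like protein 04, is a calcium sensor of the class that binds CIPKs. Its FPKM was low, at 1.49 and 1.15 in Roma salt, against 0.976 and 0.895 in Roma control. In M-81E its FPKM was 1.38 and 0.655 in salt, against 0.428 and 1.72 in control. The Roma groups did not overlap and the M-81E groups did. Its salt difference was 0.26 ± 0.36 in Roma (limma adjusted p = 0.859) and 0.01 ± 0.36 in M-81E (limma adjusted p = 0.997), and the M-81E value took either sign with the scaling and the libraries used (-0.0059 with quantile scaling, -0.25 without M-81E salt replicate 1, -0.45 without M-81E control replicate 1).

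The peaks of CIPK03 and CBL04 differed from each other. CBL04 had the pattern of CIPK25, which 4.09% of all tested genes had. Its 3′ UTR peak lay at the same 181 bp (chr3:53963456-53963636) in both salt lists, at a fold of 36 in Roma salt and 9.61 in M-81E salt. The log10 p of these peaks was -66 and -21.9. CBL04 had no peak in the control lists. CIPK03 had a 3′ UTR peak near the end of its transcript in 3 lists, at a fold of 18.5 in Roma control, 25.8 in M-81E salt and 51.8 in M-81E control. By p the M-81E control peak was the weakest, with a log10 p of -20, against -42.1 in Roma control and -94.4 in M-81E salt. CIPK03 had none in Roma salt, the condition in which its FPKM was lowest, and a link between level and peak was not tested.

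The other genes of calcium signalling, found by words in the deposited annotation, were not called with salt in either strain. Of calcium-dependent protein kinases, which bind calcium themselves instead of through a CBL, 30 were tested and 0 passed in Roma or in M-81E, with medians of 0.08 and -0.02 (log2) beside -0.03 and -0.05 over all tested genes. The word calmodulin, the name of the other main calcium sensor of plant cells, found 124 tested genes, among them proteins annotated as binding calmodulin. Of these 124, and of 122 annotated with calcium binding, 0 passed in either strain by limma. Of all tested genes 0.473% passed in Roma and 0.491% in M-81E, so 0 calls do not set lists of this size apart. Their medians were -0.0068 and 0.06 in Roma, and 0.07 and 0.03 in M-81E. At an unadjusted limma p under 0.05, 3 calcium-dependent kinases were higher and 2 lower in Roma, and 4 higher and 1 lower in M-81E. Over all tested genes 11.8% had such a p in Roma and 12.8% in M-81E. For calmodulin these counts were 12 and 7 in Roma and 14 and 4 in M-81E, and for calcium binding 16 and 4 in Roma and 12 and 7 in M-81E. Over both strains 2 calmodulin-annotated genes passed by limma, beside 1.22% of all tested genes: SORBI_3004G116300 rose by 1.72 ± 0.19 and SORBI_3006G124000 had a difference of -2.22 ± 0.33 (log2, SE; adjusted p = 0.0219 and 0.0471). Both are annotated with calmodulin binding, and both were chosen for naming with these values known. Whether these 2 calls hold in the alternative fits is not given here. The 1 gene found by the words for SNF1-related kinases, the wider class to which CIPKs belong, was too low to be tested.

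Classes on which CIPKs are known to act in other plants were read in the same way. Of sodium/proton exchangers, 5 genes were tested and 0 passed with salt by limma in either strain (0 also at an unadjusted p under 0.05). Of all tested genes only 0.473% passed in Roma and 0.491% in M-81E, so 0 of 5 does not set these exchangers apart. Their medians were 0.07 in Roma and -0.13 in M-81E. Of 43 tested potassium channels and transporters, 6 were higher and 1 lower in Roma at an unadjusted limma p under 0.05. In M-81E 2 were higher and 4 lower. Over all tested genes 11.8% had such a p in Roma and 12.8% in M-81E. The medians of the class were 0.08 in Roma and 2.2e-06 in M-81E. Of the 43, 1 passed in each strain, beside 0.473% of all tested genes in Roma and 0.491% in M-81E. It was the same gene in both, the voltage-gated potassium channel SORBI_3003G300600. It had no m6A peak in any list, and its difference was 2.68 ± 0.25 in Roma and 2.91 ± 0.25 in M-81E (limma adjusted p = 0.0168 and 0.0152). The Roma call was lost without either Roma salt library, either M-81E salt library or Roma control replicate 2 (limma adjusted p from 0.0530 to 0.135). The M-81E call was lost without any 1 of the 4 salt libraries (0.0507 to 0.0735). With only the groups compared in the fit, both calls were lost (0.0560 in Roma and 0.174 in M-81E).

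The libraries also differed in 8 genes described as histones H3 or H4, read as markers of dividing cells. Their summed FPKM ran from 423 to 478 in Roma salt, against 380 to 394 in Roma control, and from 340 to 456 in M-81E salt, against 136 to 279 in M-81E control, and 3 of the 8 were listed at 0 in some library. Their part in the salt differences of CIPK25 was not tested.

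The genes most like CIPK25 over the 8 libraries were picked by Pearson's r of log2(FPKM + 1), among 9185 other genes that averaged an FPKM of 5 or more and were above 0 in every library. They were SORBI_3001G398500 (r = 0.990), annotated as a mannosidase of N-glycan processing, SORBI_3003G005600 (0.982), a ubiquitin ligase, SORBI_3009G117500 (0.975), a lipase, SORBI_3003G241500 (0.971), an NADP-dependent isocitrate dehydrogenase, and SORBI_3004G284600 (0.971), a serine/threonine kinase. The r of the gene at rank 50 was still 0.902, so these are the top of a long slope and not a separate group. The ubiquitin ligase had an FPKM of 10.4 ± 0.447 in Roma salt, against 5.01 ± 0.162 in Roma control, and of 7.45 ± 0.947 in M-81E salt, against 5.29 ± 1.20 in M-81E control (SD, n = 2). The ligase was picked for its likeness to CIPK25 in these libraries, so its levels are no separate result. It was also the 1 gene of the 5 with the peak pattern of CIPK25, at a fold of 24.0 in Roma salt and 20.5 in M-81E salt. Of all tested genes 4.09% had this pattern. The mannosidase and the isocitrate dehydrogenase had peaks in all 4 lists, and the lipase and the kinase in none.

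On chromosome 2 the nearest genes with a listed peak lay on either side of CIPK25. SORBI_3002G417201, annotated like CIPK25 as a serine/threonine kinase at the plasma membrane, had its nearest peaks 12887 to 12947 bp from CIPK25 and was listed in all 4 conditions, at highest folds of 51.1 in Roma salt, 40.6 in Roma control, 27.3 in M-81E salt and 118 in M-81E control. Its FPKM was 24.4 and 19.6 in Roma salt, against 18.5 and 23.2 in Roma control, and 48.8 and 18.5 in M-81E salt, against 15.0 and 5.56 in M-81E control. Its groups overlapped in Roma and not in M-81E. SORBI_3002G417500, annotated as a potassium ion transporter, had a peak 13114 bp away in Roma salt, M-81E salt and M-81E control but not in Roma control. Its FPKM was 59.8 and 77.1 in Roma salt, against 81.9 and 60.7 in Roma control, and 108 and 101 in M-81E salt, against 101 and 26.0 in M-81E control. Its Roma groups overlapped, and its lower M-81E salt library was level with the higher M-81E control library. The fitted salt differences in Roma were 0.08 ± 0.57 for the kinase and -0.05 ± 0.59 for the transporter (log2, SE; limma adjusted p = 0.986 and 0.993), beside 0.99 ± 0.24 for CIPK25. In M-81E they were 1.61 ± 0.57 for the kinase and 1.01 ± 0.59 for the transporter (limma adjusted p = 0.348 and 0.489), both larger than the 0.45 ± 0.24 of CIPK25.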

How the data were processed

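Per the labels' protocols, poly(A) RNA of roots was cut to short fragments, enriched with an m6A antibody or left as input, and sequenced with a strand-specific method. The expression columns are FPKM, per the file headers. The authors' fold enrichment of a peak is a ratio of IP to input, and each peak has a deposited p-value and 2 deposited scores, the log10 of p and of the false discovery rate. Tools listed by the submitters' processing notes are HISAT2, StringTie, edgeR, cutadapt, FastQC and ChIPseeker, with no roles. Genome build, peak caller, pooling of replicates and strand handling in counting were not given in the sources used here.

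CIPK25 and the context lists were chosen with earlier results of these data known. Differences were fitted with limma 3.58.1 in R 4.3.3 on log2(FPKM + 1) for all genes whose mean FPKM reached 1, with a mean for each group, a trend in eBayes, and Benjamini-Hochberg adjustment over all 16280 genes; the code was tested on simulated data. FPKM differences understate the change of low genes, and p-values measure the spread between the deposited samples. Named genes were CIPK25, genes named CIPK or CBL, list members past the threshold (at most 4 a list), the 5 most alike in level, and the neighbours. Peaks counted as shared from 1 bp of overlap. Other steps used pandas 2.3.3 under Python 3.11.15. Read totals were not used here, so intervals of single FPKM values are not given. No nucleotide or protein sequences were used here. Alternatives were a pseudocount of 0.1, other filters and scalings, a replicate block, eBayes without a trend, only the groups compared, each library left out, and stricter peaks.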

Additional observations from a re-analysis of the deposited data

How the results depend on the processing

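With 2 libraries per group, an exact test within a strain could not pass, and no limma contrast of CIPK25 passed an adjusted p of 0.05 in any alternative that kept all 8 libraries. Without 1 library the differences ranged from 0.50 to 0.79 for Roma against M-81E in salt, from 0.59 to 0.85 for salt over both strains, from 0.24 to 0.50 for the strains over both treatments, and from -0.16 to 0.36 for Roma against M-81E in control; the passes among them are given above. The control difference was -0.0094 with an equal sum of FPKM. With quantile scaling the median strain difference of all genes was 0.05 in salt and 0.03 in control, against 0.29 and 0.30 as deposited, and that of CIPK25 was 0.49 in salt. CBL04 in M-81E was -0.0059 with quantile scaling, and ranged from -0.45 to 0.27 without 1 library (without M-81E control replicate 2 its mean FPKM was under 1 and it was not fitted); CIPK03 in M-81E ranged from -0.42 to 0.21. At a fold enrichment of at least 2 only 1 peak of CIPK25 was left in Roma salt. The labels give the same replicate numbers to every group but do not pair samples, and what the numbers stand for was not given. Replicate differences correlated between groups at -0.04 to 0.04. With a replicate block the salt difference of CIPK25 in Roma was again 0.99 (limma adjusted p = 0.268) and no call for CIPK25 changed. The block ended the calls of the potassium channel SORBI_3003G300600 (0.0511 in Roma and 0.0603 in M-81E). The count of genes past the threshold ranged from 26 to 312 for salt in Roma (77 in the fit reported), from 3 to 3082 in M-81E (80), from 22 to 2780 over both strains (198), from 5 to 1074 for the difference of the salt changes (29), from 228 to 4134 for the strains in salt (1370), from 257 to 4189 in control (1971), and from 1451 to 6933 over both treatments (4512).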
